A study of Drosophila melanogaster with 20 samples.

Results

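Of 15473 transcripts measured in adult fly heads, 51 were higher in flies with RNA interference against ATM in glia and also in flies with it in neurons, while staying below a set rise in ATM8 homozygotes. The members were chosen on differences between group means of the deposited log2 levels. A member had a difference of at least 0.6 (about 1.5-fold) between Repo-ATMi and Repo-GAL4 and between Elav-ATMi and Elav-GAL4, and a difference under 0.6 between ATM8 homozygotes and heterozygotes. In addition, every ATMi array lay above every driver-only array in the Repo and the Elav comparison. The values that chose the members are therefore given as a description, and the only test between genotypes is made in the ElavC155 arrays, which the choice did not use.

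The series holds 20 arrays of head RNA, 1 per sample, from 8 genotypes. Repo-ATMi flies (Repo-GAL4 over UAS-RNAiATM, both on chromosome 3) were set against Repo-GAL4/+ flies, 2 samples each, and ElavC155-ATMi flies (driver on the X chromosome) against ElavC155-GAL4/+ flies, 2 samples each. Elav-ATMi flies (driver on chromosome 2) were set against Elav-GAL4/+ flies, 4 samples each. All 3 ATMi genotypes carried 1 copy of UAS-RNAiATM on chromosome 3 and none of their controls did, all in a w1118 background at 25°C, with a labelled age of 4 to 6 days. The ATM8 homozygotes and the ATM8/+ heterozygotes, 2 samples each, carried no driver and no transgene, had the background pp e1, were reared at 18°C until collection at 0 to 3 days after eclosion and then held for 3 days at 25°C. No age is labelled for them beyond this. How many heads went into a sample is not given in the sources used here.

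ATM is a protein kinase that is activated by DNA double-strand breaks and phosphorylates checkpoint and repair proteins, and in the fly it is encoded by tefu. GAL4 is a yeast transcription factor that switches on genes placed behind its UAS sites. Repo is a glial and Elav a neuronal gene, so their drivers direct the interfering RNA to glia or to neurons, and the head RNA still comes from all cells of the head. A higher level of a transcript in head RNA may come from more RNA per cell or from more cells that hold it, and these cannot be told apart here. The comparisons address which cell type of the head responds to lowered ATM function, and the study's title puts glia and innate immunity at its centre.

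Each transcript is known here only by its FlyBase transcript number. The gene table used here matched 44 of the 15473 rows and 17 of them to exactly 1 gene, and 0 of the 51 members were among them. None of the 202 entries of 13 lists of immune, stress, DNA damage, strain marker and cell type marker genes could be tied to a row, so the labelled tissue, the level of tefu and the roles of the members are not analysed here. The arrays held 2 distributions of values. Array medians lay between 10.45 and 10.63 on the ATM8 and Repo arrays and between 10.84 and 10.93 on the Elav and ElavC155 arrays, so levels are compared within each of these sets or as percentiles within a genotype. RMA levels carry no detection flag, and where a transcript is dim the size of its difference has no measured floor.

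By the choice of members, the differences between ATMi and driver-only flies were all positive with both drivers, and the size varied widely. Repo-ATMi minus Repo-GAL4 ran from 0.63 to 7.43 on the log2 scale with a median of 1.56, and Elav-ATMi minus Elav-GAL4 ran from 0.62 to 7.75 with a median of 1.34. Over all transcripts the medians were -0.02 and -0.01. The Repo demand alone was met by 5.19% of all transcripts and the Elav demand alone by 1.03%. Of the 51 members, 30 had differences of at least 1 with both drivers, 11 of at least 2 and 5 of at least 3. The Repo difference was the larger of the 2 for 23 members. A further 8 transcripts met every demand but the one on ATM8, and 22 met the 3 demands on differences but had overlapping arrays.

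In driver-only flies the typical member lay below the middle of all transcripts. The median member stood at percentile 29.1 of all transcripts in Repo-GAL4 and at percentile 23.4 in Elav-GAL4. In ATMi flies it stood at percentile 38.4 with the Repo driver and 37.5 with the Elav driver. On single arrays, 21 to 22 of the members lay in the lowest 25% of values in Repo-GAL4 and 25 to 27 in Elav-GAL4, against 4 to 6 in Repo-ATMi and 3 to 4 in Elav-ATMi. These arrays chose the members, so lower levels in driver-only than in ATMi flies follow from the choice. Nothing further is read from these shifts.

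**Figure D1:**
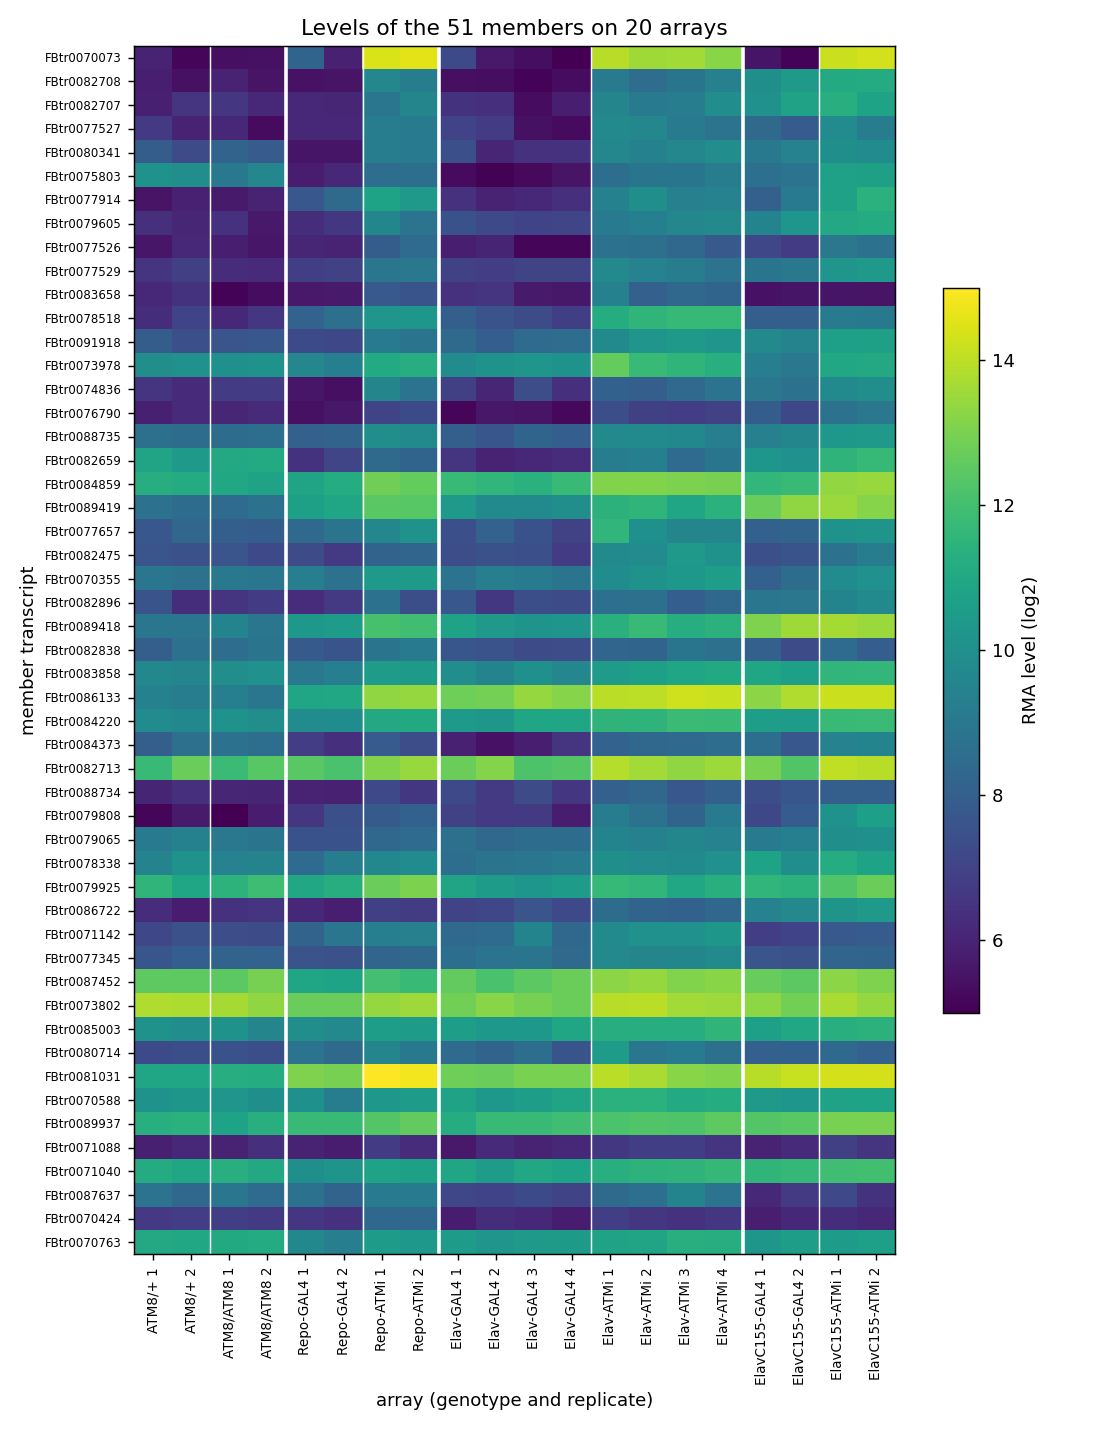
Level (log2 RMA, colour) of each of the 51 members (rows, from the largest to the smallest value of the lesser of the Repo and Elav differences) on each of the 20 arrays (columns, grouped by genotype, thick white lines between comparisons). The columns of ElavC155-GAL4 are brighter than those of Elav-GAL4 for many of the upper rows. The ATM8 columns differ less between homozygotes and heterozygotes than the Repo and Elav columns do between ATMi and driver-only flies. The choice of members favours this, since it held ATM8 rises below the limit that Repo and Elav rises had to reach.

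FBtr0070073 stood apart from the other members in size, with log2 differences of 7.43 with the Repo driver and 7.75 with the Elav driver. The next largest differences were 3.90 and 4.08. Its levels were 8.23 and 5.93 on the Repo-GAL4 arrays and 14.43 and 14.58 on the Repo-ATMi arrays. On the Elav-GAL4 arrays they were 7.24, 5.69, 5.37 and 5.02, and on the Elav-ATMi arrays 13.92, 13.58, 13.63 and 13.22. Replicate 1 of each of these driver-only genotypes was the highest of its group, and still lay far below the ATMi arrays of the same driver. In percentiles it went from 21.9 in Repo-GAL4 to 97.4 in Repo-ATMi and from 12.4 in Elav-GAL4 to 87.2 in Elav-ATMi.

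In the ElavC155 arrays FBtr0070073 was at 5.58 and 5.10 in driver-only flies and at 14.20 and 14.34 in ATMi flies. It rose by 8.93 ± 0.64 on the log2 scale (SE, limma adjusted p = 9.4e-07, and at most 0.00089 over 27 alternative settings). On the ATM8 arrays it was at 6.01 and 5.17 in heterozygotes and at 5.43 and 5.46 in homozygotes. In percentiles it stood at 5.11 in heterozygotes and 2.55 in homozygotes, against 5.48 in ElavC155-GAL4. It lay between 13.22 and 14.58 on the 8 arrays of flies with the interfering transgene and between 5.02 and 8.23 on the other 12.

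The ElavC155 comparison sets 2 ATMi against 2 driver-only arrays, so an exact permutation test of a single transcript cannot go below p = 0.333, and limma's moderated test across all 15473 transcripts was used instead. "Rose" and "fell" are used for this test alone, where its adjusted p was under 0.05. Of the 51 members, 17 rose and 0 fell, while 0.33% of all transcripts rose and 0.174% fell. At an unadjusted p under 0.05, 36 members were higher, against 3.52% of all transcripts. All 51 members had a positive difference, as had 51.3% of all transcripts, and 37 had a difference of at least 0.6, as had 2.39% of all transcripts. Both ElavC155-ATMi arrays lay above both ElavC155-GAL4 arrays for 45 members, which was the case for 19.3% of all transcripts.

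The median ElavC155 difference of the members was 0.84 on the log2 scale, against 0.01 over all transcripts. It was smaller than the Elav difference for 43 members, with a median ratio of 0.603, and larger for 8. The choice of members demanded a large Elav difference and nothing of the ElavC155 difference. It therefore favours the larger Elav value, and no weaker response with ElavC155 is read from these sizes. Over the 51 members the ElavC155 difference correlated with the Elav difference at Pearson's r = 0.769 (Spearman's rho = 0.617) and with the Repo difference at r = 0.684 (rho = 0.382). Without FBtr0070073 these were r = 0.527 and 0.213. Members are not independent replicates, and all 3 differences share the UAS-RNAiATM chromosome, so these are descriptions.

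**Figure D2:**
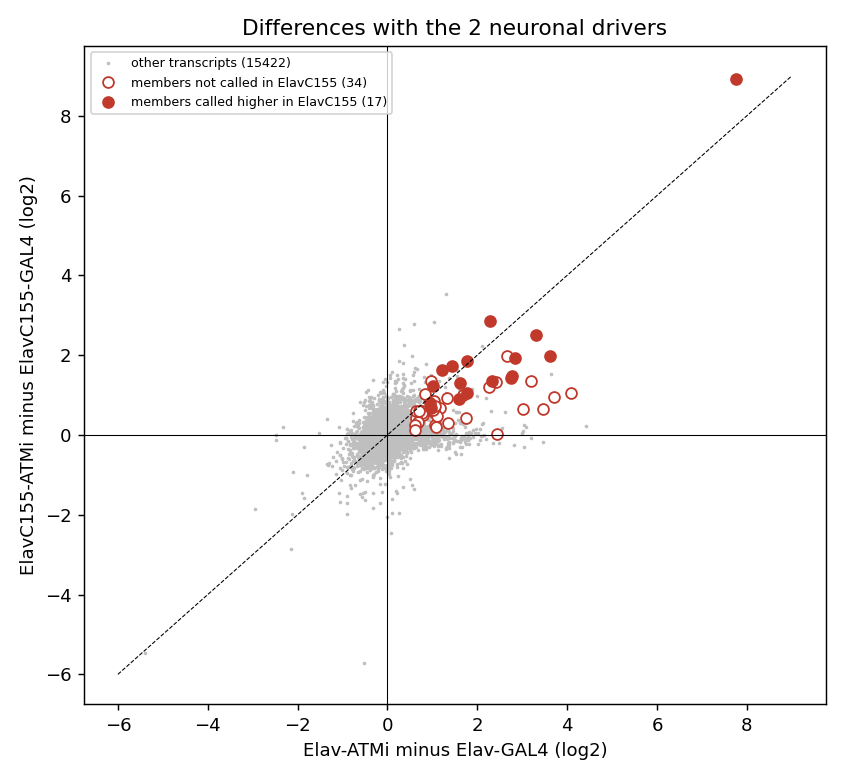
Difference between ATMi and driver-only flies (log2) with the Elav driver (horizontal) and the ElavC155 driver (vertical) for all transcripts, with the 17 members that rose in ElavC155 as filled circles and the other 34 as open circles. All members lie above 0 on both axes, mostly below the dashed line of equal differences, with FBtr0070073 at the upper right. The choice of members set a limit on the Elav difference and none on the ElavC155 difference.

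The count of 17 rested on each of the 4 ElavC155 arrays. It was 10 or 8 when ElavC155-GAL4 replicate 1 or 2 was left out, and 10 or 5 when ElavC155-ATMi replicate 1 or 2 was left out. The spread in this fit comes from all 20 arrays, which include those that chose the members. When only the 4 ElavC155 arrays were fitted, whose spread does not use the arrays of the choice, 3 members rose, and 3 transcripts in all (0.0194% of those tested), so that every transcript that rose there was a member. They were FBtr0070073, FBtr0075803 (log2 difference 1.98 ± 0.12, SE, limma adjusted p = 0.042) and FBtr0077657 (1.98 ± 0.11, adjusted p = 0.042).

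FBtr0075803 was at 8.66 and 8.82 on the ElavC155-GAL4 arrays and at 10.74 and 10.70 on the ElavC155-ATMi arrays, and in the fit of all arrays it rose by 1.98 ± 0.21 (SE, adjusted p = 0.00013, and at most 0.042 over the alternatives). With the Repo driver its levels were 5.78 and 6.13 in controls and 8.56 and 8.61 in ATMi flies. With the Elav driver they were 5.29, 5.05, 5.24 and 5.51 in controls and 8.60, 8.90, 8.89 and 9.18 in ATMi flies. The ElavC155 controls therefore had levels like those of the ATMi flies of the Elav driver, and the ElavC155-ATMi flies went higher still.

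FBtr0077657 was not called in the fit of all arrays (1.98 ± 0.51, SE, adjusted p = 0.13). Its 4 Elav-ATMi arrays read 11.57, 10.02, 9.55 and 9.54, the first far above the rest, while its ElavC155 arrays were close together, at 8.10 and 8.22 in controls and 10.12 and 10.18 in ATMi flies. Its residual SD over the 20 arrays was 0.574, above the median of 0.263 over members and of 0.194 over all transcripts.

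The 17 members that rose in ElavC155 spanned 0.68 to 8.93 with a median of 1.47, and 14 of them were among the 30 with differences of at least 1 with both other drivers. After FBtr0070073 the largest rise was that of FBtr0079808, from 7.17 and 7.91 in controls to 10.14 and 10.64 in ATMi flies, a log2 difference of 2.85 ± 0.43 (SE, limma adjusted p = 0.0045, and from 0.0012 to 0.11 over the alternatives). Its limma adjusted p was 0.11 in the fit of the 4 ElavC155 arrays alone, 0.062 without ElavC155-GAL4 replicate 1 and 0.073 without ElavC155-ATMi replicate 2. With the Repo driver this transcript had a difference of 0.96, from 6.58 and 7.43 to 7.82 and 8.10, and with the Elav driver of 2.29. In ATM8 flies it was dim, with 5.13 and 5.73 in heterozygotes and 4.96 and 5.81 in homozygotes.

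FBtr0084859 was above the middle of all transcripts in every genotype, from percentile 52.9 in ATM8 homozygotes to 85.0 in ElavC155-ATMi. It had the smallest residual SD, 0.134, among the 12 largest rises. It went from 11.64 and 11.74 in ElavC155-GAL4 to 13.37 and 13.45 in ElavC155-ATMi, a rise of 1.72 ± 0.15 (SE, adjusted p = 1.2e-05, and at most 0.052 over the alternatives, in the fit of the 4 ElavC155 arrays alone). Its differences were 1.73 with the Repo driver and 1.44 with the Elav driver, so that the 3 drivers gave 3.31-fold, 2.71-fold and 3.29-fold higher levels. The ATM8 arrays read 11.23 and 11.17 in heterozygotes and 10.96 and 10.75 in homozygotes, a difference of -0.35.

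FBtr0073978 showed a like size with each driver, with differences of 1.70 with Repo, 1.76 with Elav and 1.87 ± 0.29 with ElavC155 (SE, adjusted p = 0.0051, and up to 0.077 over the alternatives). The call was lost in the fit of the 4 ElavC155 arrays alone (limma adjusted p = 0.070), without ElavC155-GAL4 replicate 2 (0.077) and without ElavC155-ATMi replicate 2 (0.061). Its ElavC155 levels were 9.13 ± 0.18 in controls (SD, n = 2) against 10.96 and 11.04 in ATMi flies, with no overlap, and its ATM8 levels lay between 9.92 and 10.10 in both genotypes.

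**Figure D3:**
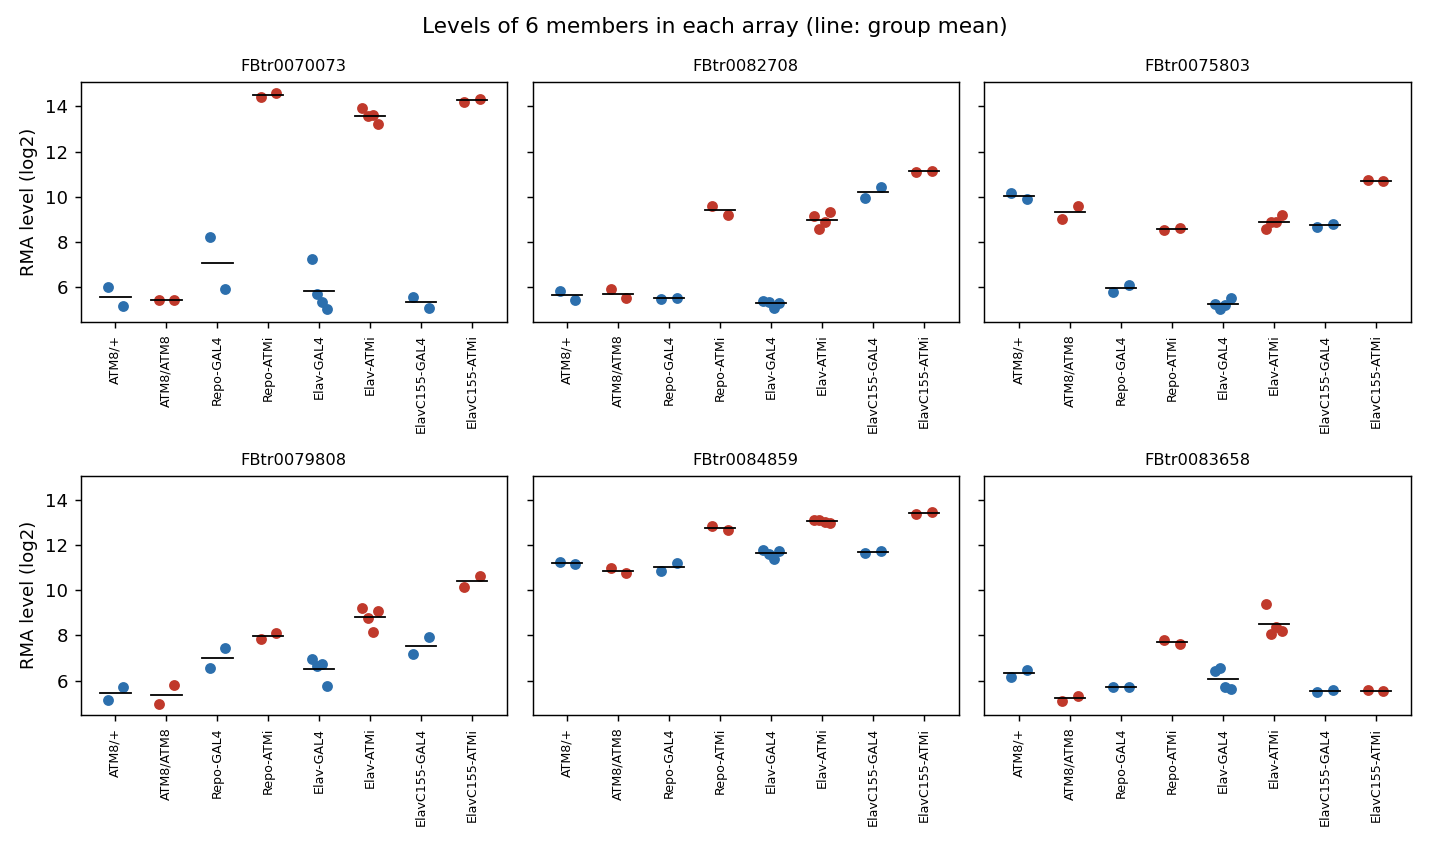
Level (log2 RMA) of 6 members on every array, by genotype, with driver-only and heterozygous flies in blue, ATMi flies and ATM8 homozygotes in red, and the group mean as a line. FBtr0070073 is high in the 3 ATMi genotypes, FBtr0082708 and FBtr0075803 are already high in ElavC155-GAL4, and FBtr0083658 is dim in both ElavC155 genotypes.

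Among the 34 members that were not called in ElavC155, the median difference was 0.61, and 19 had an unadjusted limma p under 0.05. Among them were the members that ranked 2 and 3 by the lesser of their Repo and Elav differences. FBtr0082708 was at 5.49 and 5.54 in Repo-GAL4 and at 9.61 and 9.22 in Repo-ATMi, and went from between 5.08 and 5.41 in Elav-GAL4 to between 8.58 and 9.35 in Elav-ATMi. These were 14.9-fold and 13.0-fold higher levels. On the ElavC155 arrays it was at 9.97 and 10.42 in controls and at 11.12 and 11.16 in ATMi flies, a difference of 0.94 ± 0.24 (SE, limma adjusted p = 0.12, and from 0.036 to 0.59 over the alternatives). FBtr0082707, with the neighbouring number, had differences of 3.13 and 3.45 with the Repo and Elav drivers and 0.65 ± 0.37 with ElavC155 (adjusted p = 0.97).

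The 3 members with the lowest ElavC155 differences were FBtr0083658, FBtr0070763 and FBtr0080714. FBtr0083658 read 5.49 and 5.57 in ElavC155-GAL4 and 5.57 and 5.54 in ElavC155-ATMi, a difference of 0.03 ± 0.35 (SE), while its Elav levels went from between 5.64 and 6.54 to between 8.05 and 9.39 and its Repo levels from 5.70 and 5.71 to 7.81 and 7.61. FBtr0070763 differed by 0.12 ± 0.18 and FBtr0080714 by 0.21 ± 0.43 (limma adjusted p = 1 for each of the 3, rounded). In Elav-ATMi replicate 1 FBtr0080714 read 10.48, against 8.70 to 9.16 on the other Elav-ATMi arrays.

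The levels of the members also differed between driver-only genotypes. Set against Elav-GAL4, whose arrays the choice of members used, ElavC155-GAL4 was at least 0.6 higher for 29 of the 51 members and at least 0.6 lower for 5. Over all transcripts 8.4% were that much higher and 10.4% that much lower. The median member was 0.71 higher in ElavC155-GAL4 than in Elav-GAL4, against -0.01 over all transcripts. No test is given, since members were chosen for low levels in Elav-GAL4. For 28 members both ElavC155-GAL4 arrays lay above all 4 Elav-GAL4 arrays, and for 7 they lay above all 4 Elav-ATMi arrays as well. For 6 members they lay below all 4 Elav-GAL4 arrays. The shares of all transcripts with arrays so placed were not counted, so these counts are not read as particular to the members.

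For 26 members the mean level in ElavC155-GAL4 was above the midpoint between Elav-GAL4 and Elav-ATMi. Their median ElavC155 difference was 0.87, and that of the other 25 was 0.68. Of the 17 members that rose in ElavC155, 8 were above the midpoint. The midpoint uses Elav arrays that chose the members, and the share of all transcripts above such a midpoint was not counted. These counts are therefore not read as particular to the members. FBtr0082708, at a mean of 10.20 ± 0.32 in ElavC155-GAL4 (SD, n = 2), stood 132% of the way from Elav-GAL4 (5.29 ± 0.14, SD, n = 4) to Elav-ATMi (8.99 ± 0.33, SD, n = 4). FBtr0089418 went furthest, at 13.07 and 13.57 in ElavC155-GAL4 against 11.22 to 11.74 in Elav-ATMi, and its ElavC155 difference was 0.25 ± 0.23 (SE, adjusted p = 1, rounded). FBtr0071142 was displaced in the other direction, at 6.85 and 7.01 in ElavC155-GAL4 and 7.81 and 7.91 in ElavC155-ATMi, all below the lowest Elav-GAL4 value of 8.33.

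**Figure D4:**
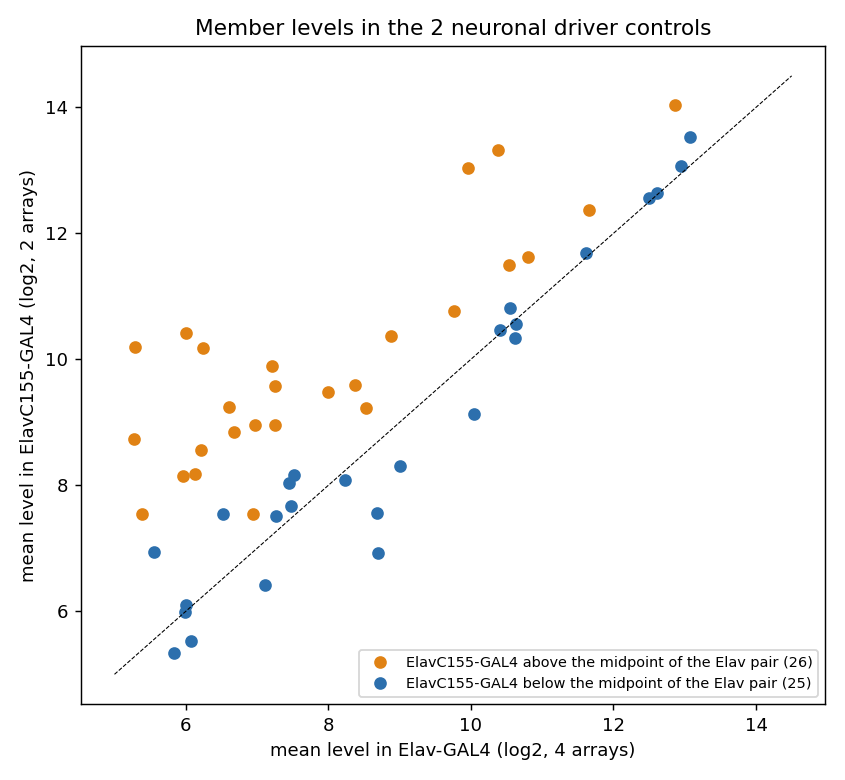
Mean level (log2) of each of the 51 members in Elav-GAL4 (horizontal, 4 arrays) and ElavC155-GAL4 (vertical, 2 arrays), both without the interfering transgene, with the dashed line of equal levels. The 26 members in orange have an ElavC155-GAL4 level above the midpoint of the Elav pair, and many of them are dim in Elav-GAL4. The share of all transcripts so placed was not counted.

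In percentiles of all transcripts the median member stood at 35.0 in ElavC155-GAL4 and at 46.6 in ElavC155-ATMi, the highest among the 8 genotypes. In ElavC155-GAL4, 11 to 12 members lay in the lowest 25% of an array, between the 25 to 27 of Elav-GAL4 and the 4 of each ElavC155-ATMi array. The mean level in ElavC155-ATMi was above that in Elav-ATMi for 34 members, and for 44 members both ElavC155-ATMi arrays lay above all 4 Elav-GAL4 arrays. The matching shares of all transcripts were not counted, and the choice of members favours low levels in Elav-GAL4. In all 3 comparisons the ATMi flies carried the chromosome with UAS-RNAiATM and the controls did not, so an effect of RNA interference and an effect of variants or of the insertion on that chromosome cannot be told apart for any member.

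In ATM8 flies, which carry neither driver nor transgene, the members lay on both sides of 0. The difference between homozygotes and heterozygotes was held below 0.6 by the choice of members. It ran from -1.10 to 0.47 with a median of -0.005, was positive for 25 of 51 members (50.6% of all transcripts) and was within 0.2 of 0 for 28. The quartiles of the difference were -0.17 and 0.16 over members and -0.17 and 0.19 over all transcripts. Values near 0 were thus not particular to the members. Both homozygote arrays lay above both heterozygote arrays for 10 members (22.9% of all transcripts) and below them for 6 (20.5%). The median member stood at percentile 29.9 in heterozygotes and 31.3 in homozygotes, near its place in Repo-GAL4. For 12 members the heterozygote mean was above the midpoint between Repo-GAL4 and Repo-ATMi, and for 8 both heterozygote arrays lay above both Repo-ATMi arrays. How many of all transcripts had heterozygote arrays so placed was not counted. Array medians were near but not equal, from 10.59 to 10.63 on the ATM8 arrays and from 10.45 to 10.52 on the Repo arrays. ATM8 and Repo flies also differed in background and rearing temperature.

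Some members stood higher in ATM8 flies than in Repo-ATMi flies. FBtr0082659 was at 10.85 and 10.42 in heterozygotes and 11.04 and 11.12 in homozygotes, at percentiles 50.5 and 56.1 of all transcripts. It was at 6.48 and 7.11 in Repo-GAL4 and only reached 8.46 and 8.24 in Repo-ATMi. In ElavC155-GAL4 it was at 10.27 and 10.07 and rose by 1.43 ± 0.26 to 11.52 and 11.69 (SE, limma adjusted p = 0.016, and up to 0.18 over the alternatives). This call was lost in the fit of the 4 ElavC155 arrays alone (limma adjusted p = 0.090) and without any 1 of those 4 arrays (0.068 to 0.18). FBtr0075803 also stood higher in ATM8 flies than in Repo-ATMi. It was at 10.15 and 9.92 in heterozygotes and 9.04 and 9.62 in homozygotes, a difference of -0.71. These means lay at percentiles 43.6 and 36.7, below the middle of all transcripts. Only 2 members had an ATM8 difference of -0.6 or lower (2.93% of all transcripts), this one and FBtr0083658 at -1.10, with 6.17 and 6.47 in heterozygotes and 5.11 and 5.34 in homozygotes.

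Some members carry neighbouring transcript numbers. There were 9 members in 4 runs whose numbers differed by at most 2, and counting each run once left 46. Whether the members of a run belong to 1 gene is not given in the sources used here. Over the 20 arrays the levels of neighbours correlated at r = 0.963 for FBtr0077526 and FBtr0077527, 0.928 for FBtr0077527 and FBtr0077529, 0.986 for FBtr0082707 and FBtr0082708, 0.977 for FBtr0089418 and FBtr0089419 and 0.698 for FBtr0088734 and FBtr0088735. The choice of members favours high values here, since all members had to be higher on the same ATMi arrays. Other pairs of members were not correlated, so no link between neighbours is read from these values. With genotype means removed the same 5 correlations were 0.685, -0.0035, 0.430, 0.671 and 0.399, so that FBtr0077527 and FBtr0077529 did not vary together within genotypes. Counting each run once by its member with the largest ElavC155 difference, 41 of 46 had both ElavC155-ATMi arrays above both controls (19.3% of all transcripts). Taking the largest difference of a run favours such separation.

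Near the limits of the choice, the members just inside the Repo limit had differences of 0.629 and 0.632 and the transcripts just outside it 0.587 and 0.556. At the Elav limit the values were 0.620 and 0.622 inside against 0.5995 and 0.522 outside. At the ATM8 limit they were 0.475 and 0.462 inside against 0.620 and 0.636 outside. Of the transcripts just outside, FBtr0072463, which missed the Repo limit at 0.587, had an ElavC155 difference of 3.52, larger than that of any member but FBtr0070073.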

How the data were processed

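The deposited table held log2 RMA levels of 15473 transcripts on 20 single-colour arrays with 0 missing values. RMA, which corrects background, normalizes between arrays and summarizes probes, is named without a version in the submitters' processing notes, and that the deposited values are on a log2 scale was read from the values. The sources used here give neither the annotation release nor the probes per transcript. A mean for each of 8 genotypes was fitted over all 20 arrays by limma (version 3.58.1, R version 4.3.3) with its default moderated two-sided test (12 residual and 3.79 prior degrees of freedom). Benjamini-Hochberg adjustment ran over all transcripts. The labels call the replicates biological and do not say how they were prepared, so the p-values reflect only how much these samples vary, which may be technical, and precision is limited by how few arrays there are. On simulated data with 200 changed transcripts, the fit of the ElavC155 comparison found 20.0% of rises set at 1.5-fold, 56.0% at 2-fold and 94.0% at 4-fold, and 9.52% of its calls were false. This was 1 run with normal noise that was independent between arrays. It held no shared deviation of same-numbered samples, so the rates describe that setting and may differ for the real arrays.

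The members, lists and tests were chosen with earlier results of these data known. Transcripts were named by these rules: the 10 members with the largest lesser value of the Repo and Elav differences, up to 12 called in ElavC155, the 3 lowest in ElavC155 and those nearest to a limit; since numbers without a gene name say little, only the first of each class and examples of a described pattern are printed. FBtr0077657, FBtr0071142 and some members with neighbouring numbers fall outside these rules and were chosen after their values were seen. Same-numbered Elav samples deviated together (r from 0.119 to 0.243 over the 4 pairs), which was taken as pairing. For ElavC155 the same value was r = 0.509, for ATM8 0.262 and for Repo -0.140. The main fit has no term for pairs, so its p-values do not use them. A replicate block for same-numbered samples was fitted as an alternative. Alternatives were other normalizations, a filter on dim transcripts, other limits, other fits and leaving out each array.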

Additional observations from a re-analysis of the deposited data

Results flagged for a closer look

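Among the 20 transcripts followed under all settings, the 4 Elav-GAL4 and the 4 Elav-ATMi levels of each were searched for a sample far from the others with Dixon's test of the gap over the range. Of 40 groups, 2 passed, no more than the 1 in 20 that chance gives, and the choice of members used these arrays, so the values are given with nothing read from them. FBtr0077914 read 9.989 in Elav-ATMi replicate 2, against 9.348 to 9.432 in the other 3. FBtr0082475 read 6.721 in Elav-GAL4 replicate 4, against 7.378 to 7.485 in the other 3.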

How the results depend on the processing

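The number of members was 30 at a limit of 1 in place of 0.6, and between 37 and 73 under the other settings. With 1 array left out it ran from 49 to 59, and 33 of the 51 stayed members whichever array was left out. The number of members that rose in ElavC155 was 3 in the fit of the 4 ElavC155 arrays alone, between 13 and 24 under the other settings and from 5 to 18 with 1 array left out. Over all transcripts the calls in ElavC155 were 3 higher and 3 lower in that fit and 120 higher and 74 lower with array weights. With 1 array left out there were 11 to 54 higher and 14 to 33 lower. The median ElavC155 difference of members was 1.06 and 1.21 for members at a limit of 0.8 and of 1, and 26 of 30 members at a limit of 1 had separated ElavC155 arrays. With 1 array left out the median ran from 0.82 to 0.90 and the number of separated members from 45 to 50. The replicate block, which takes same-numbered samples as pairs, gave 15 members that rose, 69 transcripts higher and 34 lower. The 2 Repo pairs deviated in opposite directions (r = -0.14), and with their numbers crossed, a setting chosen after seeing the data, the same block gave 15, 70 and 36. The ElavC155 difference of FBtr0083658 changed sign when arrays were shifted to a common median (-0.00945), and with 1 array left out it ran from -0.0148 (without ElavC155-GAL4 replicate 1) to 0.0652. That of FBtr0070763 ran from -0.0317 (without the same array) to 0.279. Apart from a smaller set of samples or of members where a setting removes them, the cause of these moves was not tested. Single calls of FBtr0070073 and FBtr0075803 held in all 27 alternatives, and the other 10 named transcripts that had risen lost their call under 1 to 5 of theirs.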
